A study of Mus musculus with 12 samples.

Results

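Hmgcs1, Sqle, Idi1, Fdps, Lss, Cyp51 and Srebf2 were followed in the livers of mice that lacked Mettl5 and of their wild-type (WT) littermates. The 7 genes were taken by symbol from a prepared list, which was chosen with earlier results of these data known. Of these, 6 were found in the table of 10607 genes that pairs normalized input RNA with ribosome-protected fragments (RPF), and Fdps was read only from the input count table of 55487 genes. All 7 were tested in input RNA. In RPF and in translation efficiency (TE), the ratio of RPF to input, 5 were tested, because Idi1 had a mean RPF value under 10. The list carries the name of cholesterol synthesis and uptake, but its members are 6 enzymes of cholesterol synthesis and 1 transcription factor, and none of them is a receptor or carrier that takes up cholesterol.

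METTL5 is the methyltransferase that places N6-methyladenosine (m6A) on the RNA of the small ribosomal subunit. The Mettl5 allele had a floxed exon 2, which was deleted in the whole body by a Cre transgene under the CMV promoter (B6.C-Tg(CMV-cre)1Cgn/J), so that the deletion is not particular to hepatocytes. The line was made in embryonic stem cells that are an F1 hybrid of C57bl/6 and 129S6 and was backcrossed to B6. There were 3 WT and 3 METTL5 KO mice, and each liver gave 1 input and 1 RPF library, for 12 libraries in 4 groups of 3. The paper describes the WT mice as littermate controls. WT and KO mice of the same number were taken as 1 litter, which gives 3 litters with 1 mouse of each genotype. Cycloheximide was in the lysis buffer of all samples. The RPF part of each lysate was then digested with MNase and the input part was not. No treatment that differed between the genotypes is stated. The labels give no age or sex for the single mice, and the study as a whole used both sexes over a range of ages. Of the sex-linked transcripts, Xist had 0 counts in all 6 livers and the Y-linked genes had reads in all 6.

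Cholesterol is made in the cytosol and the endoplasmic reticulum from acetyl-CoA, through mevalonate, isoprenoid diphosphates, squalene and lanosterol, and the liver is a main site of this synthesis. SREBP-2, the protein made from Srebf2, is held in the endoplasmic reticulum by SCAP and INSIG proteins when sterols are plentiful. When sterols fall, it is carried to the Golgi, cut by proteases, and its released domain enters the nucleus and switches on the enzymes of the pathway and its own gene. Among the members, Hmgcs1 encodes the cytosolic HMG-CoA synthase of the mevalonate arm, Idi1 and Fdps act on the isoprenoid diphosphates, Sqle and Lss turn squalene into lanosterol, and Cyp51 demethylates lanosterol.

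The 6 input libraries held between 8326325 and 11825643 counted read pairs, and the 6 RPF libraries between 4623826 and 9184242 reads in the genes of the table. Mettl5 itself differed as the labels say. Its normalized RPF values were 58.4, 47.8 and 53.1 in the WT mice of litters 1, 2 and 3 and 8.34, 5.53 and 9.56 in the KO mice, a log2 fold change of -2.64 ± 0.36 (SE, n = 3 per group, limma, adjusted p = 0.00504). In input the values were 38.5, 28.2 and 15.7 in WT and 8.55, 9.3 and 7.99 in KO, from 5 to 21 reads per library. The input log2 fold change was -1.59 ± 0.46 and did not pass the adjusted threshold (edgeR, adjusted p = 0.999). All 6 hepatocyte markers were read in every library, and their summed input value was 262526 to 358698 in WT and 275832 to 297097 in KO livers. Normalized values here are reads divided by 1 factor per library, with no division by gene length.

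The promoters of the members were read from RefSeq (GRCm38.p6), as the 250 bases before the start annotated there, for the 5 members with an entry. Distances to the start count from that RefSeq start. The gene coordinates given further below are from GENCODE and differ from it. By those coordinates the windows of Idi1, Lss, Cyp51 and Srebf2 reach into the gene. They are shown for Hmgcs1, Srebf2, Lss and Cyp51, since these genes carry the comparisons that follow. The windows lie at chr13:119690101-119690350 (plus strand), chr15:82147019-82147268 (plus strand), chr10:76531355-76531604 (plus strand) and chr5:4104698-4104947 (minus strand), and each is printed 5′ to 3′ on the strand of its gene. Capitals mark the core of the sterol regulatory element, TCACCCCA, and the NF-Y box, CCAAT, which reads ATTGG on the other strand.
Hmgcs1: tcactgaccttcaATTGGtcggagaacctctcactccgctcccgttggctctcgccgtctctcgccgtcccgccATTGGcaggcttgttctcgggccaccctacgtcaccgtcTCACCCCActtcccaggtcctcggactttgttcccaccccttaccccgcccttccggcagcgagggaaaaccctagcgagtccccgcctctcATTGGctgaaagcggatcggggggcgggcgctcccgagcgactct
Srebf2: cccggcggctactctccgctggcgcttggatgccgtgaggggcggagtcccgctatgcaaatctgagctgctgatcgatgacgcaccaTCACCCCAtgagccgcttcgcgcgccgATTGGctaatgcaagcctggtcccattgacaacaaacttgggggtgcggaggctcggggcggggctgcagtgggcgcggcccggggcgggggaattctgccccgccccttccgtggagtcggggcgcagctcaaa
Lss: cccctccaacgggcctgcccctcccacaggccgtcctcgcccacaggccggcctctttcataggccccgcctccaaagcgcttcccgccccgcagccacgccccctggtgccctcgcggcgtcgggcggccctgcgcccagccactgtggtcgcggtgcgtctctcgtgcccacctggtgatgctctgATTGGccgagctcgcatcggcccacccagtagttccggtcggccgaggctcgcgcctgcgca
Cyp51: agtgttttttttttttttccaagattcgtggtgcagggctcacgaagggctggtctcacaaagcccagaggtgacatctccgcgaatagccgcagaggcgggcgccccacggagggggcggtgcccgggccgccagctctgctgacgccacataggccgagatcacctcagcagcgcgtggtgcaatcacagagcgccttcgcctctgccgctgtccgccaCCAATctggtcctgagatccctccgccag
Both strands were searched for the 2 motifs, which do not overlap in letters. TCACCCCA was found in the windows of Hmgcs1, from 137 to 130 bases before the start, and of Srebf2, from 162 to 155 bases before it. Over all 32851 promoters of the same length, 1.34% held this core. CCAAT was found in all 5 windows, with 3 matches for Hmgcs1, 2 for Idi1 and 1 each for Lss, Cyp51 and Srebf2, against 33.8% of all promoters. Both motifs together stood in 0.377% of all promoters. A match is a run of letters and not a measured binding site, and the absence of these letters from a window says nothing about the factor.

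The members differed widely in level. Per kilobase of exon, the mean normalized input of the WT livers was 547 ± 98.6 (SD, n = 3) for Hmgcs1, followed by Cyp51 with 182 ± 23.9, Sqle with 67.5 ± 23.6, Lss with 30.0 ± 0.70, Srebf2 with 29.7 ± 2.75 and Idi1 with 16.2 ± 5.90. The order of Lss and Srebf2 was within their spread, and the ranges of the other neighbours did not overlap. Per kilobase of coding sequence, the RPF level in WT livers followed the same order, from 3939 ± 638 for Hmgcs1 through 977 ± 135 for Cyp51, 249 ± 38.6 for Sqle, 159 ± 13.8 for Lss and 46.4 ± 7.54 for Srebf2 to 6.98 ± 2.12 for Idi1. None of these RPF ranges overlapped. The order was also the same in the KO livers, where Hmgcs1 had an input level of 864 ± 117 and an RPF level of 5156 ± 958 per kilobase.

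**Figure D1:**
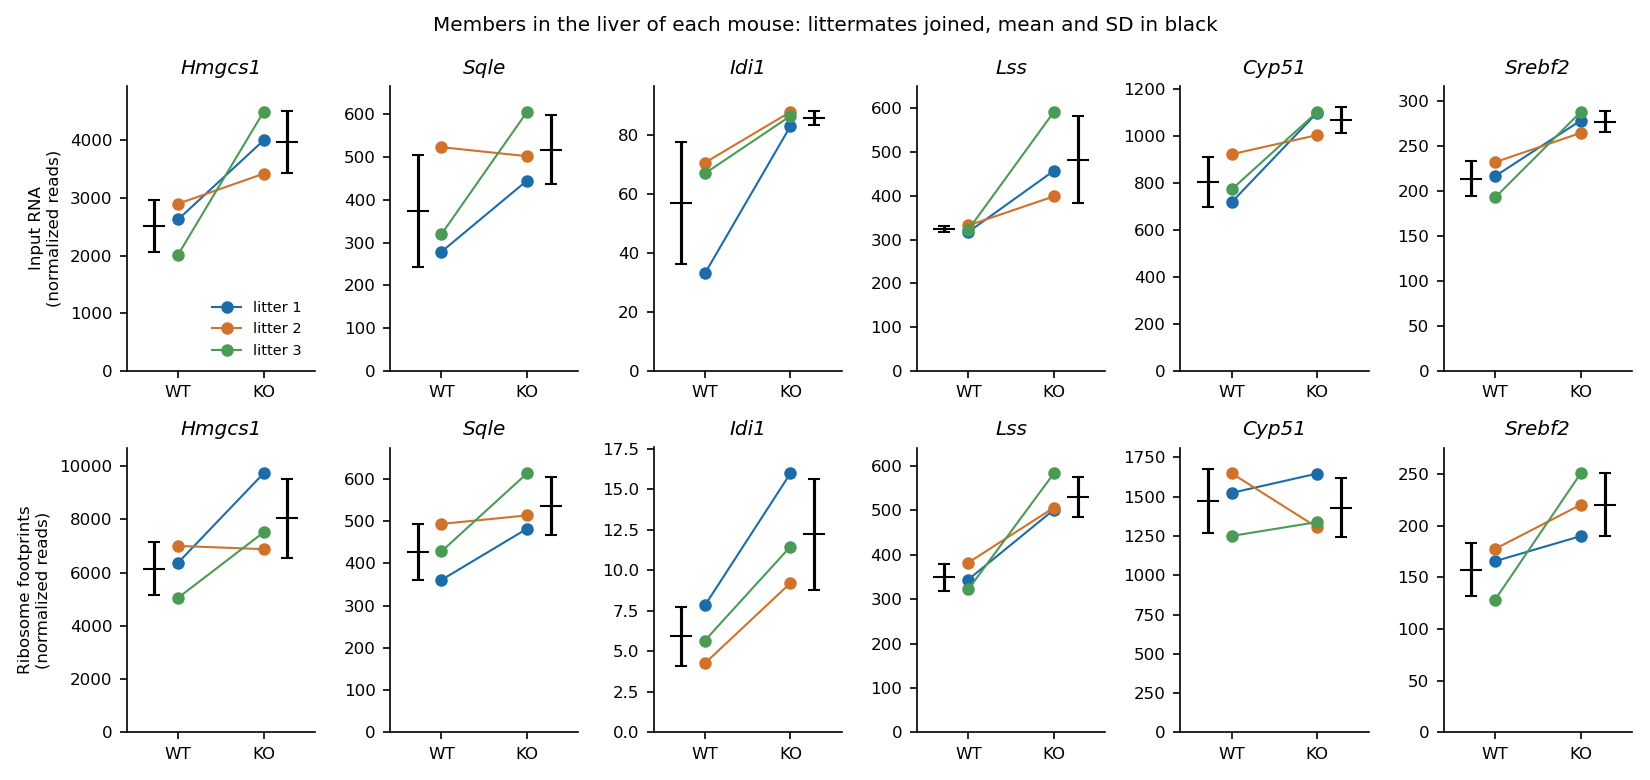
Normalized reads (linear axes from 0) of the 6 members in the paired table, for input RNA in the upper row and RPF in the lower row. Each line joins the WT and the KO mouse of 1 litter, and the black marks are the mean and SD of 3 mice. Input values of Hmgcs1, Idi1, Lss, Cyp51 and Srebf2 in KO livers lie above all WT values, while the RPF values of Cyp51 overlap between the genotypes.

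Hmgcs1 (ENSMUSG00000093930, chr13:119690379-119708260, plus strand, mm10) makes HMG-CoA, the substrate of the rate-limiting step. Its normalized input was 2627, 2899.6 and 2015 in the WT mice of litters 1, 2 and 3 and 3999, 3421 and 4493 in their KO littermates. The KO values were above all WT values, and the log2 fold change was 0.69 ± 0.16 (SE, n = 3 per group), or 1.61-fold. This was the lowest adjusted p among the members in input (edgeR, adjusted p = 0.801), and it did not pass the threshold of 0.05. Without the filter on low counts Hmgcs1 passed (edgeR, adjusted p = 0.00165), in a fit that called 30 genes. Its log2 fold change was then 0.70 ± 0.14, so the estimate stayed close and the SE was smaller. In RPF, Hmgcs1 had 6373, 7006 and 5056 in WT and 9731, 6885 and 7516 in KO livers. The groups overlapped here, since the KO mouse of litter 2 was below its WT littermate, and the log2 fold change was 0.39 ± 0.17 (limma, adjusted p = 0.343). It fell to 0.25 without the WT mouse of litter 3 and to 0.24 without the KO mouse of litter 1.

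Idi1 (ENSMUSG00000058258, chr13:8885501-8892451, plus strand), the isopentenyl diphosphate isomerase, was the member with the lowest level. Its normalized input was 33.0, 70.5 and 66.9 in WT and 82.9, 87.7 and 86.3 in KO livers. The KO mice were above all WT mice and close to each other, and the WT mouse of litter 1 was well below the others. The log2 fold change was 0.60 ± 0.26 (edgeR, adjusted p = 0.999), and 0.34 without that WT mouse. Between 5 and 23 footprints were read per library, with normalized RPF values of 7.84, 4.27 and 5.67 in WT and 15.99, 9.22 and 11.5 in KO livers. The genotypes did not overlap in RPF either, and each KO mouse was above its littermate. Without the filter on low values, the RPF log2 fold change was 0.93 ± 0.33 (limma, adjusted p = 0.235).

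Fdps (ENSMUSG00000059743, chr3:89093588-89101959, minus strand), the farnesyl diphosphate synthase, had the lowest input log2 fold change of the members. It had 12, 21 and 36 input counts in WT and 63, 20 and 22 in KO livers, or 1.65, 2.46 and 3.55 against 3.23, 2.01 and 2.65 as TMM-scaled CPM. The groups overlapped, and the log2 fold change was 0.04 ± 0.33 (edgeR, adjusted p = 0.999). The value turned to -0.17 without the WT mouse of litter 1 and to -0.16 without the KO mouse of litter 1. Of the 4208 exon bases of Fdps, 1124 (26.7%) are shared on the same strand with Gm43738 (chr3:89081939-89101099), which had 0 counts in every library. Reads in bases that 2 genes share were not assigned to either under the counting options in the file header, so the counts of Fdps cover only part of its exons.

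Sqle (ENSMUSG00000022351, chr15:59315077-59331192, plus strand), the squalene epoxidase, is a second control point of the pathway. Its normalized input was 279, 523 and 319.9 in WT and 445, 502 and 606 in KO livers. The WT mouse of litter 2 was above 2 of the KO mice, and the log2 fold change was 0.49 ± 0.23 (edgeR, adjusted p = 0.999). Without that mouse it was 0.81, and without the WT mouse of litter 1 it was 0.32. In RPF, Sqle had 361, 493 and 428 in WT and 482, 513 and 613 in KO livers. Each KO mouse was above its WT littermate, but the groups overlapped, and the log2 fold change was 0.33 ± 0.20 (limma, adjusted p = 0.495), or 0.21 without the WT mouse of litter 1.

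Lss (ENSMUSG00000033105, chr10:76531588-76557138, plus strand), the lanosterol synthase that closes the sterol rings, was higher in KO livers without overlap in both layers. Its normalized input was 317, 332 and 323 in WT and 457, 399 and 592 in KO livers. The WT mice were nearly equal and all KO mice were above them, with a log2 fold change of 0.60 ± 0.16 (edgeR, adjusted p = 0.999). In RPF, Lss had 344, 382 and 322 in WT and 501, 506 and 583 in KO livers, again without overlap. The RPF log2 fold change was 0.60 ± 0.15, or 1.51-fold, with an adjusted p of 0.0733 by limma. With litter as a block, the adjusted p was 0.0208, and Lss was then the only member past the threshold, in a fit that called 3.26% of all genes (293 of 8994). With the block and with the trend of each library with the GC content of coding sequences removed, its adjusted p was 0.0600 in limma, and no member passed.

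Cyp51 (ENSMUSG00000001467, chr5:4081145-4104746, minus strand), the lanosterol demethylase, was higher in KO livers without overlap in input and had overlapping groups in RPF. Its normalized input was 719, 923 and 774 in WT and 1100.4, 1005 and 1103 in KO livers. All KO mice were above all WT mice, and the log2 fold change was 0.44 ± 0.14 (edgeR, adjusted p = 0.999). In RPF, Cyp51 had 1524, 1647 and 1249.7 in WT and 1647, 1304 and 1338 in KO livers. These groups overlapped over nearly their whole range, and the log2 fold change was -0.04 ± 0.14 (limma, adjusted p = 0.926). The difference between the layers was tested as TE and did not pass the adjusted threshold.

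Srebf2 (ENSMUSG00000022463, chr15:82147181-82205379, plus strand) encodes the transcription factor SREBP-2. Its normalized input was 216, 232 and 193 in WT and 278, 264 and 288 in KO livers. The groups did not overlap, and the log2 fold change was 0.40 ± 0.15 (edgeR, adjusted p = 0.999). In RPF, Srebf2 had 166, 177 and 128 in WT and 189.8, 220.1 and 250.4 in KO livers, with every KO mouse above every WT mouse. The RPF log2 fold change was 0.49 ± 0.16, or 1.40-fold (limma, adjusted p = 0.172). Whether more SREBP-2 reached the nucleus is not measured by these libraries.

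In input, no member passed an adjusted p of 0.05 in DESeq2 or in edgeR with the filter on low counts. Of all 10057 genes tested, edgeR with this filter called 0 (0.0%), and without it Hmgcs1 alone of the members passed. At an unadjusted p under 0.05, 5 of the 7 members were higher in KO livers (Hmgcs1, Idi1, Lss, Cyp51 and Srebf2), where 1.97% of all genes were. The same 5 had no overlap between the genotypes and were higher in KO, against 4.23% of all genes as TMM-scaled CPM. The fold changes of all 7 members were above 0. The count of 5 at an unadjusted p under 0.05 was 4 with DESeq2 and 6 with the litter block or without the count filter. It was 6 without the WT mouse of litter 2 and 4 without any other single mouse. The members were chosen with earlier results of these data known, so these shares are not independent of that choice. In bulk liver, more cells of a type and more RNA per cell cannot be told apart, and where nothing else is known of the mice, these p-values measure only the spread between these 6 animals.

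In RPF, no member passed the adjusted threshold in limma or in edgeR on whole reads, where limma called 44 of 8994 genes (0.489%). At an unadjusted p under 0.05, Hmgcs1, Lss and Srebf2 were higher in KO livers, which is 3 of the 5 members tested against 5.4% of all genes. This count fell to 1 without the WT mouse of litter 3 and to 2 without the WT or the KO mouse of litter 1. Lss and Srebf2 were without overlap and higher, which is 2 of 5 against 6.97% of all genes. These shares were read against all genes tested and carry no p of their own, and the members share a pathway, so that they do not count as independent. The shares also depend on a choice of members made with earlier results of these data known.

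TE of the members did not pass the threshold for any gene, nor did it for any of the 8994 genes tested (0.0%) in limma or in edgeR on whole reads. Cyp51 was the member with the lowest log2 fold change in TE. Its log2 TE was 1.08, 0.83 and 0.69 in the WT mice of litters 1, 2 and 3 and 0.58, 0.38 and 0.28 in the KO mice, lower in KO in 3 of 3 litters and without overlap. The log2 fold change was -0.46 ± 0.20 (limma, adjusted p = 0.998). At an unadjusted p under 0.05, Cyp51 alone among the 5 members was lower in KO livers, as were 2.61% of all genes, and it alone was lower without overlap, as were 7.34% of all genes. For Hmgcs1 the log2 TE was 1.28, 1.27 and 1.33 in WT and 1.28, 1.01 and 0.74 in KO livers, with a log2 fold change of -0.28 ± 0.24. The KO mouse of litter 1 was at the WT level and the other two KO mice were below it. The TE log2 fold changes of Sqle, Lss and Srebf2 were -0.18 ± 0.28, 0.05 ± 0.21 and 0.11 ± 0.23, and their groups overlapped. This fit took the input and RPF library of a liver as independent. With a block per mouse, which keeps that pairing, the fold changes were the same. The SE was then 0.15 for Cyp51, 0.14 for Hmgcs1, 0.17 for Sqle and Lss and 0.19 for Srebf2. The adjusted p of Cyp51 was 0.419 in this limma fit, and no member passed.

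**Figure D2:**
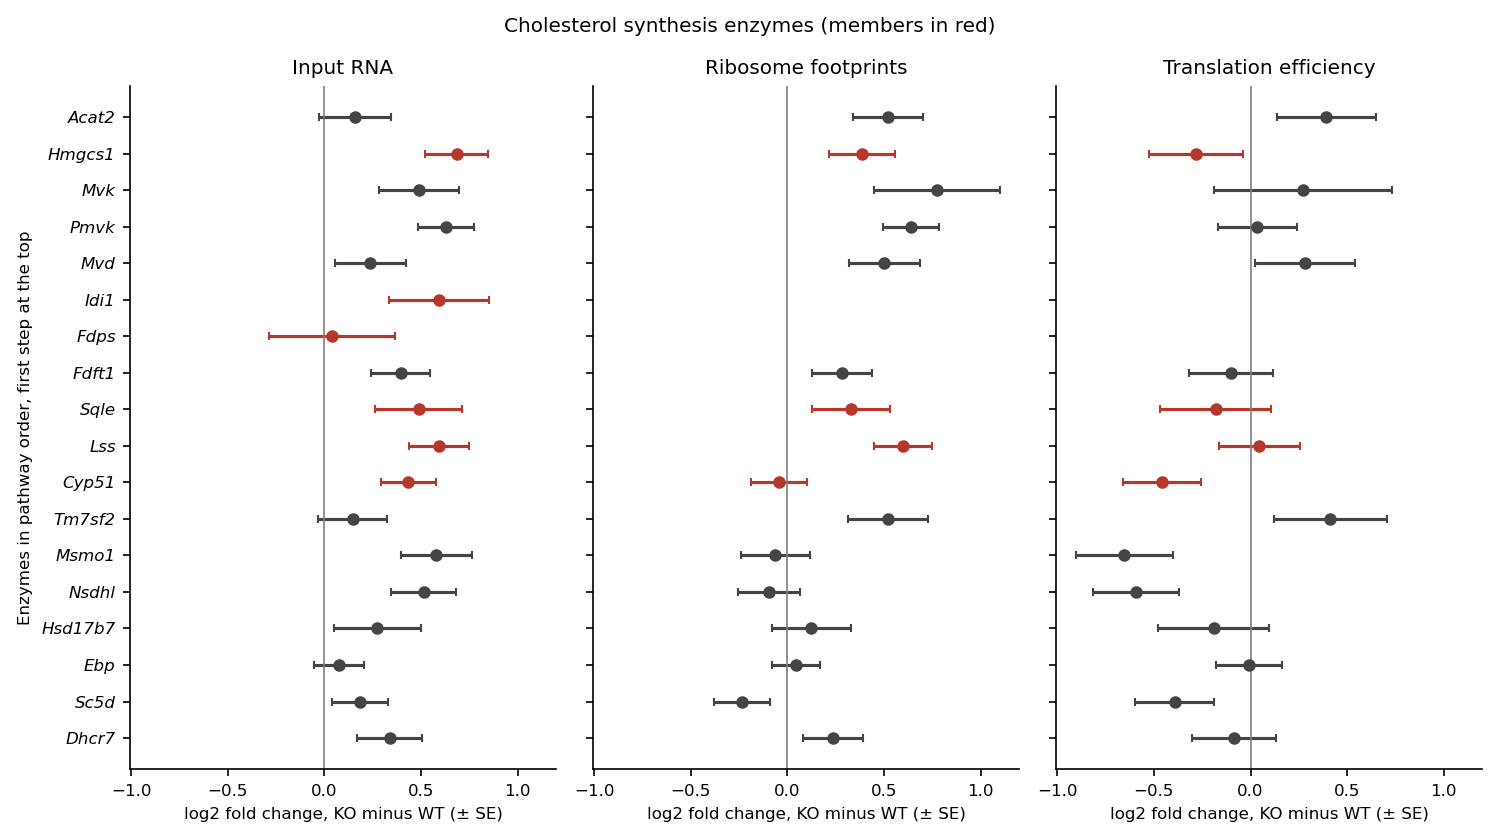
Log2 fold change between KO and WT livers (points, with SE as bars) of the 18 enzymes of cholesterol synthesis reported here, in pathway order from top to bottom, for input RNA, RPF and TE. Members are red. In input all 18 points lie above 0, in RPF 12 of 16 do, and in TE 6 of 16 do.

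The other enzymes of the pathway had the same sign as the members in input RNA. They were taken from a list chosen with earlier results of these data known. That list holds the member enzymes as well, and these stand in every count and median below, so the values are not separate from those of the members. All 18 enzymes reported here had a log2 fold change above 0 in input, from 0.04 for Fdps to 0.69 for Hmgcs1, with a median of 0.42 where the median of all genes was -0.0004. None passed the adjusted threshold, 9 had an unadjusted p under 0.05 (1.97% of all genes were higher at this level), and 10 were higher without overlap as TMM-scaled CPM (4.23% of all genes), or 8 in normalized values. Hmgcs1, Idi1, Lss and Cyp51 of the 9 are members. The 9 fell to 6 with DESeq2, without the WT mouse of litter 1 or without the KO mouse of litter 3. It rose to 11 with the litter block or without the count filter, and to 12 without the WT mouse of litter 2. Those above 0 numbered 17 without the WT mouse and 16 without the KO mouse of litter 1. In RPF, 12 of the 16 enzymes tested were above 0, with a median of 0.31 against -0.03 for all genes. None of the 16 passed, 7 were higher at an unadjusted p under 0.05 (5.4% of all genes), and 4 were higher without overlap (6.97% of all genes). Hmgcs1 and Lss of the 7, and Lss of the 4, are members. The 7 fell to 4 without the WT mouse of litter 1, the KO mouse of litter 2 or the KO mouse of litter 3. Pmvk, the phosphomevalonate kinase, had the lowest adjusted p of the list in RPF, with a log2 fold change of 0.64 ± 0.14 (limma, adjusted p = 0.0517) and an input log2 fold change of 0.63 ± 0.15. Acat2, the acetyl-CoA acetyltransferase of the first step, had 0.52 ± 0.18 in RPF (limma, adjusted p = 0.201) and 0.16 ± 0.19 in input. With litter as a block, 3 of these enzymes passed in RPF, all higher in KO livers. That fit called 3.26% of all genes, against 0.489% without the block. The adjusted p with the block in limma was 0.0137 for Pmvk, 0.0208 for the member Lss and 0.0316 for Mvk. With the block and the GC trend removed none of the enzymes passed, in a fit that called 86 genes.

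In TE, the enzymes had a median log2 fold change of -0.09 against -0.01 for all genes, with 10 of 16 below 0 and none past the adjusted threshold. At an unadjusted p under 0.05, 3 were lower in KO livers, where 2.61% of all genes were. None was without the KO mouse of litter 3, and 4 were with a block per mouse or of litter. The 3 were Cyp51, Msmo1 with -0.65 ± 0.25 and Nsdhl with -0.59 ± 0.22. Msmo1 and Nsdhl, a pair of enzymes that remove further methyl groups of the sterol, were singled out after their values were seen. Msmo1 and Nsdhl resembled Cyp51 in both layers, with input log2 fold changes of 0.58 ± 0.18 and 0.51 ± 0.17 and RPF log2 fold changes of -0.06 ± 0.18 and -0.10 ± 0.16.

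**Figure D3:**
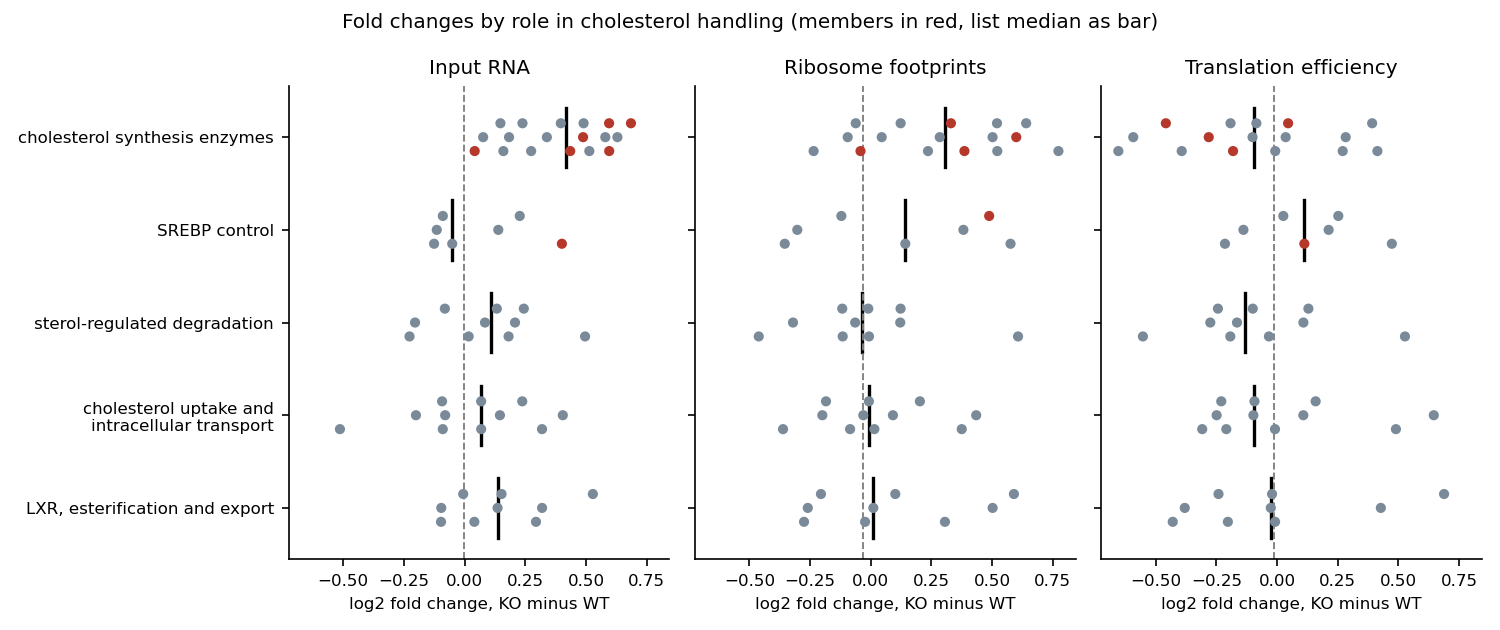
Log2 fold change between KO and WT livers of single genes (points, members in red) in 5 lists of cholesterol genes, for input RNA, RPF and TE. Black bars are list medians and the dashed line is the median of all genes tested. The synthesis enzymes have an input median of 0.42, and the other lists have input medians from -0.05 to 0.14.

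The other lists had input medians nearer to that of all genes, and no test compared the lists. Of the 7 genes of SREBP control, 3 were above 0 in input and 4 in RPF, Srebf2 had the highest log2 fold change in input, and the list median was -0.05 in input and 0.14 in RPF. Scap, the escort of SREBP-2, had 0.14 ± 0.15 in input and 0.58 ± 0.23 in RPF (limma, adjusted p = 0.289). Insig2, which holds the SCAP complex back, had -0.11 ± 0.14 in input and -0.35 ± 0.15 in RPF (limma, adjusted p = 0.319). In the list of sterol-regulated degradation, 0 of 10 genes passed in any comparison, 7 were above 0 in input and 3 in RPF, and the medians were 0.11 and -0.04. Rnf145, an INSIG-binding ubiquitin ligase singled out after its values were seen, had the highest input log2 fold change of this list, 0.50 ± 0.22. Vcp, the segregase that extracts proteins from the endoplasmic reticulum, had 0.61 ± 0.24 in RPF (limma, adjusted p = 0.292, then 0.0285 with litter as a block and 0.0191 with the block and the GC trend removed), and the ubiquitin ligase Rnf139 had -0.46 ± 0.21 (adjusted p = 0.353).

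Uptake and intracellular transport of cholesterol, the role named in the list's label, was read from 11 other genes. None passed in input, RPF or TE, 6 were above 0 in input and 5 in RPF, and the median log2 fold changes were 0.07 and -0.01. Lipa, the lysosomal lipase that frees cholesterol from lipoprotein esters, had -0.36 ± 0.15 in RPF (limma, adjusted p = 0.311), and the lipoprotein receptor Lrp1 had 0.20 ± 0.12 (adjusted p = 0.476). Among 9 genes of the LXR receptors, esterification and export, none passed, 6 were above 0 in input and 5 in RPF, and the medians were 0.14 and 0.01. Abcg1, a sterol exporter singled out after its values were seen, had 0.53 ± 0.25 in input, without overlap. Nr1h2, which encodes LXR beta, had 0.59 ± 0.24 in RPF (limma, adjusted p = 0.289), and Lcat, which esterifies cholesterol in plasma, had 0.31 ± 0.13 (adjusted p = 0.302).

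**Figure D4:**
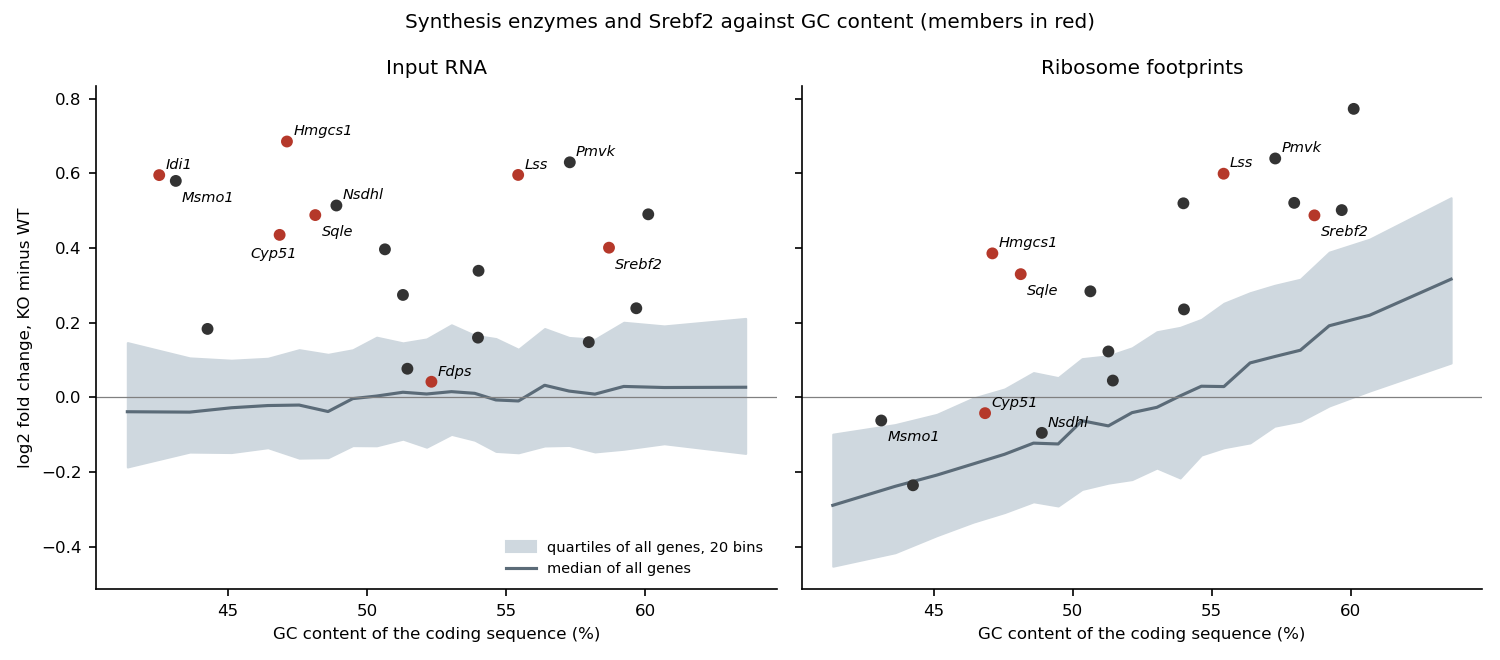
Log2 fold change between KO and WT livers against the GC content of the coding sequence, for input RNA and RPF. The line and the band are the median and quartiles of all genes in 20 bins of GC content, and points are the synthesis enzymes and Srebf2 (members in red). In RPF the line rises from -0.29 in the bin of lowest GC content to 0.32 in that of the highest, and Hmgcs1, Sqle, Lss and Srebf2 lie above the band while Cyp51 lies within it.

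RPF differences also followed the base composition of the genes. Across 8986 genes, which are not independent replicates, differences in RPF correlated with the GC content of the coding sequence (Spearman's rho 0.45), and for input rho was 0.07 across 9622 genes. The coding GC content was 42.5% for Idi1, 46.9% for Cyp51, 47.1% for Hmgcs1, 48.1% for Sqle, 52.3% for Fdps, 55.4% for Lss and 58.7% for Srebf2, against a median of 52.6% over the genes tested in RPF. Msmo1 and Nsdhl were at 43.1% and 48.9%. With the GC trend removed from each library, the RPF log2 fold changes were 0.54 ± 0.16 for Hmgcs1, 0.46 ± 0.21 for Sqle, 0.54 ± 0.14 for Lss, 0.12 ± 0.14 for Cyp51 and 0.33 ± 0.15 for Srebf2, and none passed the adjusted threshold in limma. Over the 16 enzymes, 15 were then above 0 in RPF, with a median of 0.33. The TE log2 fold change of Cyp51 was -0.34 ± 0.20 after this removal, and those of Msmo1 and Nsdhl were -0.48 ± 0.24 and -0.50 ± 0.22. Of these, Nsdhl alone then had an unadjusted p under 0.05 in limma (0.0353, against 0.0994 for Cyp51 and 0.0602 for Msmo1).

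The members were also counted mouse by mouse, which restates the differences between the genotypes, and covariation within a genotype was not measured. In input, each of the 3 KO mice was above the 6-mouse mean for all 6 members in the paired table, the WT mice of litters 1 and 3 were above it for 0 of 6, and the WT mouse of litter 2 for 2 of 6. In RPF, the KO mice of litters 1, 2 and 3 were above the mean for 6, 4 and 5 of the 6 members, and the WT mice for 1, 3 and 0. The SD of log2 input over the 6 mice was 0.52 for Idi1, 0.44 for Sqle, 0.42 for Hmgcs1, 0.35 for Lss, 0.26 for Cyp51 and 0.23 for Srebf2, where the median over all genes was 0.26. In RPF, Cyp51 had the lowest SD of the members, 0.18, against a median of 0.28 over all genes.

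Likeness to the members was measured as the mean of 2 Pearson correlations with the average member profile, over the 6 input and over the 6 RPF libraries. Since each correlation rests on 6 mice in 2 genotypes, it is a description with no test. The 10 other genes most like the members, of those reported here, were Col5a1 (0.96), Pmvk (0.95), Lmnb1 (0.94), Fdft1 (0.93), Adamts1 (0.91), Thada (0.91), Col3a1 (0.90), Adamts13 (0.90), Dhcr7 (0.89) and Gpihbp1 (0.89). Pmvk, Fdft1 and Dhcr7 are synthesis enzymes, and Col5a1 and Col3a1 encode fibrillar collagens. The 12 synthesis enzymes that are no members and were tested in RPF had a median likeness of 0.61, against -0.05 over all 8994 genes, and the other 4 lists had medians from -0.21 to 0.21.

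Among markers of other liver cells, those of stellate cells had summed levels that did not overlap between the genotypes. The 5 stellate cell markers in the table summed to 901 to 1042 in WT and 1169 to 1213 in KO input, and to 1815 to 2012 in WT and 2669 to 2835 in KO RPF. Dcn, Reln, Col1a1 and Col3a1 had log2 fold changes of 0.14 to 0.70 in input and 0.45 to 0.97 in RPF, while Lrat, which marks quiescent stellate cells, had -0.19 and -0.17, and Des had at most 15 counts in any input library. None of these passed the adjusted threshold, and 3 of 5 in input (1.97% of all genes) and 4 of 5 in RPF (5.4% of all genes) were higher at an unadjusted p under 0.05. The marker lists were chosen with earlier results of these data known. The summed hepatocyte, Kupffer cell, endothelial, cholangiocyte and blood cell markers overlapped between the genotypes in input and in RPF. The sum of the Y-linked genes, which mark no cell type, did not overlap either and was lower in KO livers. It was 707 to 774 in WT and 663 to 684 in KO input, and 1381 to 1434 in WT and 1023 to 1294 in KO RPF. Of the 6 endothelial markers, 2 were higher and 1 was lower without overlap in RPF, where 6.97% and 12.9% of all genes were. They were singled out after their values were seen. Stab2 and Kdr overlapped in RPF, with log2 fold changes of -0.07 ± 0.16 and 0.09 ± 0.17. Eng had 372 to 441 in WT and 637 to 680.5 in KO livers, with a log2 fold change of 0.67 ± 0.16 (limma, adjusted p = 0.0638), Lyve1 had 1.39 ± 0.51 at 3.41 to 25.8 normalized reads, and Clec4g was lower with -0.32 ± 0.16. In input, Pecam1 alone of the 6 was lower without overlap, with -0.42 ± 0.22, where 4.34% of all genes were. The part of cell composition in the differences of the members was not tested.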

How the data were processed

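RNA-seq (input) and ribosome profiling (RPF) libraries were made from the same 6 livers, 3 WT and 3 METTL5 KO. For the input counts, the authors used BBDuk for trimming and STAR 2.7.3a for alignment to mm10, kept unique reads and counted read pairs per gene by strand with featureCounts (2.0.3 in the file header, 1.6.0 in the submitters' processing notes). The paired table of input and RPF signal was deposited as normalized values from RiboToolkit, named RPKM. Its values are reads divided by 1 factor per library with no gene length, since 100% of values were whole reads within 0.01, and recovered input reads equalled the counts. For RPF, RiboToolkit was given read 1 without removal of duplicates and kept footprint-sized reads that map to 1 place. Fold changes and p-values of the authors in the table were not used.

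Input counts were tested with edgeR 4.0.16 (quasi-likelihood, TMM, filterByExpr). For RPF and TE the test was limma 3.58.1 (trend and robust) on log2(value + 1), with 4 group means over 12 libraries and TE as an interaction, where the mean reached 10 over the input and over the RPF libraries. Fold changes on this scale understate those of low genes. The fit took the input and RPF library of 1 mouse as independent, and a fit of TE with a block per mouse was an alternative. P-values were adjusted over all genes by Benjamini-Hochberg. The design was written for normalized values, and edgeR on the recovered reads was kept as an alternative. DESeq2 1.42.0 was an alternative for input, and R was 4.3.3. The fits of input, RPF and TE as reported were tested on simulated data. The sample titles give a genotype and a number and name no litter, and WT and KO mice of 1 number were taken as littermates. The paper states that the WT livers were littermate controls, and it does not say which mice shared a litter. Deviations from the group means correlated between littermates with r of 0.08 to 0.13 in input and 0.14 to 0.24 in RPF, and between other pairs with -0.12 to 0.02 and -0.24 to 0.08.

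The members, the 5 role lists and the marker lists were chosen with earlier results of these data known. Named genes were the members, Mettl5, the 2 other genes of each role list with the smallest RPF p, any gene of these lists past the threshold, and the 10 other genes most like the members. Of the genes these rules list or name, 5 are not reported here and stand in no count of a list. Gene coordinates and coding sequences are from GENCODE (mm10), promoters from RefSeq. On the opposite strand, other genes share 557 exon bases of Hmgcs1, 323 of Idi1, 381 of Lss and 166 of Cyp51.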

Additional observations from a re-analysis of the deposited data

How the results depend on the processing

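Of 215 alternative values for the 17 fold changes of the members, 200 changed neither sign nor call, 2 passed the threshold newly (Hmgcs1 in input without the count filter and Lss in RPF with the litter block) and 13 turned sign, all for results whose reported value lay between -0.04 and 0.11. With the GC trend removed, with or without the litter block, the RPF log2 fold change of Cyp51 was 0.12 and the TE log2 fold changes of Lss and Srebf2 were -0.018 and -0.051. Leaving out single mice gave -0.17 to 0.36 for Fdps in input, -0.16 to 0.043 for Cyp51 in RPF and -0.050 to 0.13 for Lss in TE. It also gave 0.32 to 0.81 for Sqle and 0.34 to 0.76 for Idi1 in input, 0.24 to 0.49 for Hmgcs1 and 0.21 to 0.44 for Sqle in RPF, and -0.42 to -0.15 for Hmgcs1, -0.34 to -0.09 for Sqle and 0.04 to 0.22 for Srebf2 in TE. With the GC trend removed, TE of Hmgcs1 and Sqle was -0.17 and -0.08.

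Members past the threshold numbered 1 in input without the count filter and 1 in RPF with the replicate block of litter, and the block changed no other call of a member. With the block and the GC trend removed, 0 members passed in RPF. Over all genes in input, the count went from 0 to 1 with DESeq2, to 30 without the count filter and to 2 with the litter block, and lay between 0 and 21 without single mice, with 21 without the KO mouse of litter 2. Over all genes in RPF it went from 44 to 293 with the litter block, to 13 with the GC trend removed and to 86 with both, and lay between 0 (without the KO mouse of litter 2) and 226 (without the KO mouse of litter 1). Genes of the role lists past the threshold numbered 0 in the fits as reported and 4 in RPF with the litter block. Counted after the data were seen, they numbered 1 in input without the count filter (Hmgcs1), and in RPF 1 with centred columns (Pmvk), 1 with edgeR on whole reads (Pmvk), 1 with the block and the GC trend removed (Vcp) and 0 to 2 without single mice, with 2 (Scap and Tm7sf2) without the KO mouse of litter 1. Tested with edgeR on the recovered whole reads, 66 genes passed in RPF. In TE every fit called 0 genes, the fit with a block per mouse among them. The causes of these shifts were not tested.

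Read from the same fits after the data were seen, the median log2 fold change of the synthesis enzymes lay between 0.33 and 0.58 in input, 0.22 and 0.44 in RPF and -0.21 and -0.01 in TE. Precision is limited by 3 mice per genotype and, for Idi1, by 5 to 23 footprints per library.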
